A study of Mus musculus with 12 samples.

Results

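Nrf2, encoded by Nfe2l2, is a transcription factor that switches on genes against oxidative and electrophilic stress. The genes described here were chosen by symbol: Nfe2l2 itself, its inhibitor Keap1 and the targets Nqo1, Hmox1, Gclc, Gclm, Txnrd1, Srxn1, Prdx1 and Osgin1. The choice was made with earlier results of these data known. Each of the 10 symbols matched a row of its own among the 28427 gene rows of the count table. All 10 passed the filter on low counts. They were measured by RNA sequencing of mouse mammary epithelial cells in 12 libraries, in 4 groups of 3 that the series describes as biological replicates. The groups were C57BL/6 cells grown for 96 h as spheroids in Matrigel (a basement membrane extract), for 96 h as monolayers on collagen, for 48 h as spheroids in Matrigel and for 48 h as monolayers on collagen. All cells received progesterone and prolactin, and no genotype differed. The format and the matrix differ in the same libraries and cannot be told apart. Per the labels, medium was renewed in the gels after 48 h. For the monolayers the sources used here do not say so, nor whether replicates came from separate animals. The p-values set group differences against the spread between these cultures, and may not cover variation between animals.

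As background, Keap1 holds Nrf2 for a Cul3 ubiquitin ligase, which marks it for destruction. Oxidants and electrophiles modify cysteines of Keap1, Nrf2 then escapes, enters the nucleus and binds the antioxidant response element with a small Maf partner. Control therefore acts largely on the protein, and the mRNA of Nfe2l2 is not a measure of its activity. The targets make glutathione, keep thioredoxin and peroxiredoxin reduced, reduce quinones and break down haem. In mammary epithelium, as in liver and lung, the pathway is studied for its handling of reactive oxygen species and reactive metabolites.

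The core letters of the antioxidant response element, TGANNNNGC, are shown in the promoters of the genes for which a sequence was at hand, because this is the element that Nrf2 and its Maf partner bind. RefSeq promoters of build GRCm38.p6, from 250 bases before to 50 bases after a gene's start, were found for 8 of the 10 genes, with 3 starts for Txnrd1, and not for Hmox1 and Gclc. Searched on both strands, the letters stood in 8 of the 10 windows of these genes (7 of the 8 genes), and in 41.3% of all 32851 mouse promoter windows. The stricter form TGACNNNGC, which lies within it, stood in 5 of the 10 windows, each of another gene, against 12.4% of all windows. The form TGANTCAGC, which also holds the AP-1 letters TGANTCA and was chosen after the windows and values were seen, stood in 3 of the 10 windows, those of Prdx1, Osgin1 and Srxn1, against 1.19% of all windows. The AP-1 letters alone stood in the same number of these windows, against 7.81% of all windows. The window of Nqo1 held none of these forms. Bases further than 250 before a start were not searched, so an absent match says nothing about them. A match is a description of letters and not a measured binding site. The following lines give a match for each gene that had any outside the transcribed bases, with 10 bases on either side and the matching letters in capitals, read 5′ to 3′ on the strand that holds the motif.
Prdx1 (chr4:116685456-116685484, minus strand, 133 bases before the start): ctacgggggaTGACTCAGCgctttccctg
Osgin1 (chr8:119437038-119437066, minus strand, 99 bases before the start): ttcataagcgTGAGTCAGCaggggcccct
Srxn1 (chr2:152105469-152105497, plus strand, 45 bases before the start): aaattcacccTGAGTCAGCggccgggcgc
Gclm (chr3:122245413-122245441, minus strand, 134 bases before the start): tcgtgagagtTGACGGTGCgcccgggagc
Txnrd1 (chr10:82859104-82859132, minus strand, 92 bases before the start): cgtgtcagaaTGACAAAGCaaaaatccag
Keap1 (chr9:21239375-21239403, plus strand, 61 bases before the start): cgcctccagcTGAACCTGCaccggcggac
Nfe2l2 (chr2:75704885-75704913, minus strand, 240 bases before the start): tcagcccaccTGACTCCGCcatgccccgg
Srxn1 had the most matches, and its 250 bases before the start (GRCm38.p6, chr2:152105274-152105523, plus strand) are given with the matches of either strand in capitals, as an example of how closely they can stand.
Srxn1 promoter: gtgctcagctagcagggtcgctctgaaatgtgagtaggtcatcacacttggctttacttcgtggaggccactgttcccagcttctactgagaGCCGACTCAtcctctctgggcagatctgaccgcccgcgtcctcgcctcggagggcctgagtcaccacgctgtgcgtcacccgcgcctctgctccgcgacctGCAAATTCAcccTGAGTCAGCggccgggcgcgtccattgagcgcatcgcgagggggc

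Library totals lay between 7674105 and 13554497 counts, and of the 10 genes all but Nqo1 and Osgin1 had at least 394 counts, the lowest value of Keap1, in each library. Levels are given as CPM, counts divided by library size after TMM scaling, which corrects for composition. Of the 13951 genes tested, edgeR's quasi-likelihood test (adjusted p by Benjamini-Hochberg) called many in every comparison: 57.9% for spheroids against monolayers at 48 h, 73.8% at 96 h, 39.8% for 96 h against 48 h in spheroids and 61.3% in monolayers. Counts of genes called have to be read against these shares. The share of calls that were higher depended on scaling: 54.5% for spheroids at 48 h and 49.0% for 96 h monolayers, against 65.1% and 66.2% with scaling by total count and 65.2% each on the authors' log2 FPKM values. Epithelial markers (Epcam, Cdh1, Cldn4 and 5 keratins) were strong as a sum in all groups, between 4860 and 12970 CPM. The sum hides large differences of single keratins. Krt5 had 131 CPM in 96 h spheroids, 10.0 in 96 h monolayers, 216 in 48 h spheroids and 76.5 in 48 h monolayers. Krt14 had 908, 73.6, 1033 and 494 CPM in the same order. Markers of other cells were present too. Endothelial markers summed to 6.76 to 8.23 CPM in 96 h spheroids, 68.5 to 71.3 CPM in 96 h monolayers, 27.8 to 38.3 CPM in 48 h spheroids and 41.2 to 55.8 CPM in 48 h monolayers. In bulk libraries, fewer cells of a type and less RNA per cell cannot be told apart.

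**Figure D1:**
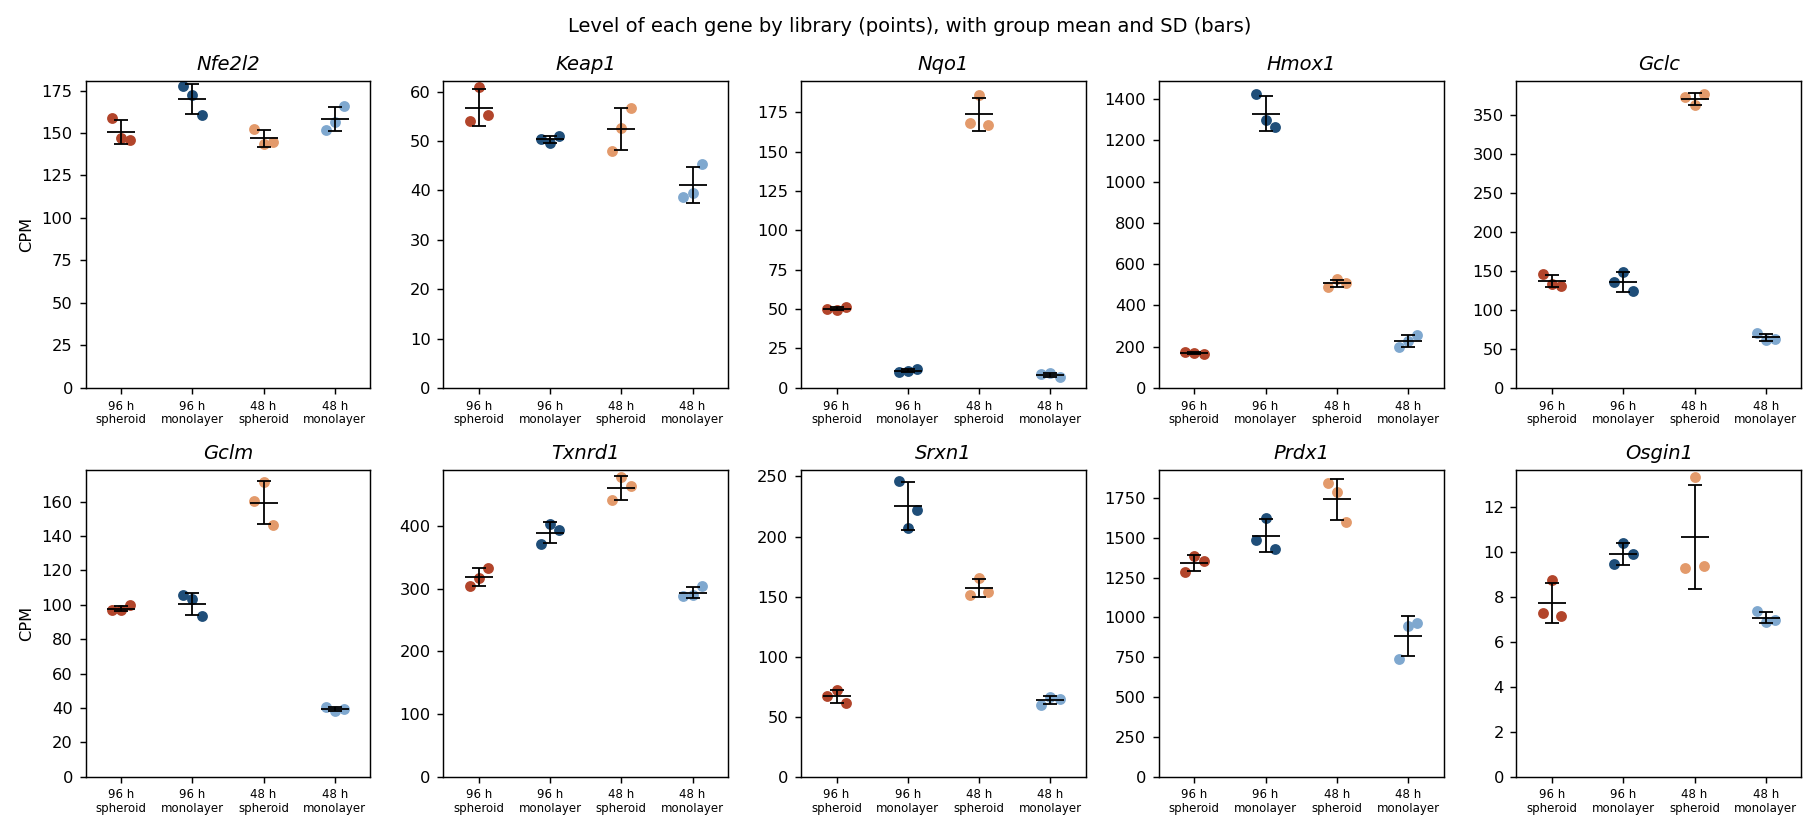
Level of each gene in CPM (vertical axis, linear, from 0) in the 12 libraries, by group: 96 h spheroids, 96 h monolayers, 48 h spheroids and 48 h monolayers. Points are libraries and bars are group means with SD (n = 3); Nfe2l2 stays between 144 and 177 CPM in all libraries while Nqo1 ranges from 6.98 to 186 CPM.

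Nfe2l2 varied least among these genes. It stood at 159, 147 and 146 CPM in 96 h spheroids and 177, 172 and 160.5 CPM in 96 h monolayers. At 48 h it stood at 152, 144 and 145 CPM in spheroids and 152, 157 and 166 CPM in monolayers. The highest group mean was 1.16-fold the lowest, and every group overlapped its neighbour in that order. The level of Nfe2l2 in spheroids did not pass the test against monolayers at 48 h (log2 change -0.11 ± 0.0644 (SE), adjusted p = 0.169; 95% interval -0.24 to 0.029), and its sign there turned with scaling by total count (0.0036) and on the log2 FPKM values (0.0016). At 96 h it was slightly lower in spheroids (log2 change -0.18 ± 0.0638 (SE), adjusted p = 0.0188). That call ended without replicate 1 of the 96 h monolayers or replicate 2 or 3 of the 96 h spheroids (log2 change -0.14 to -0.16, adjusted p from 0.0676 to 0.0845) and without the filter on low counts (adjusted p = 0.0693); over 21 alternatives the adjusted p was 0.00116 to 0.0845.

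Keap1, the inhibitor, varied least after Nfe2l2, with a highest group mean 1.38-fold the lowest. It stood at 54.0, 61.0 and 55.2 CPM in 96 h spheroids, 50.4, 49.6 and 51.0 CPM in 96 h monolayers, 48.1, 52.7 and 56.7 CPM in 48 h spheroids and 38.6, 39.5 and 45.3 CPM in 48 h monolayers. The 48 h monolayers lay below all other groups, which overlapped each other in the order of their means. Keap1 was 1.27-fold higher in spheroids at 48 h (log2 change 0.35 ± 0.0810 (SE), adjusted p = 0.00118). At 96 h the difference did not pass (log2 change 0.17 ± 0.0777 (SE), adjusted p = 0.0551; 95% interval 0.0077 to 0.33). It did pass without replicate 1 or 3 of the 48 h monolayers, replicate 1 of the 48 h spheroids or replicate 1 of the 96 h spheroids (log2 change 0.16 to 0.20, adjusted p from 0.0375 to 0.0476), without the filter (0.0366) and with the 96 h groups fitted alone (0.0228); over 21 alternatives the adjusted p was 0.0228 to 0.383.

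At 48 h, spheroids had higher levels of the targets than monolayers. Nqo1, a quinone reductase, was 20.7-fold higher, and the subunits of glutamate-cysteine ligase, which makes the precursor of glutathione, were 5.73-fold (Gclc, the catalytic subunit) and 4.05-fold (Gclm, the modifier subunit) higher. Srxn1, which repairs overoxidised peroxiredoxins, Hmox1, which breaks down haem, and Prdx1, a peroxide-removing peroxiredoxin, were higher by smaller folds. All 8 targets and Keap1 rose in this comparison and none fell, against 31.6% of all tested genes called higher. The median log2 change of the 10 genes was 1.07, against 0.05 over all 13951 genes. In 9 of the 10, every spheroid library lay above every monolayer library, where 60% of all tested genes did not overlap in either direction.

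The values of single libraries show the size of these differences. Nqo1 had 168, 186 and 167 CPM in 48 h spheroids, against 8.73, 9.37 and 6.98 CPM in 48 h monolayers (log2 change 4.37 ± 0.0936 (SE), adjusted p = 3.73e-17). The lowest spheroid library thus lay far above the highest monolayer library, which held 113 counts. Gclc had 372, 362 and 376 CPM in spheroids, against 69.9, 61.0 and 63.0 CPM in monolayers (log2 change 2.52 ± 0.0780 (SE), adjusted p = 5.96e-15). Gclm, the partner that makes the enzyme more efficient, had 161, 171 and 146 CPM in spheroids, against 40.3, 38.1 and 39.5 CPM in monolayers (log2 change 2.02 ± 0.0728 (SE), adjusted p = 4.67e-14). For each subunit all spheroids stood above all monolayers.

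Srxn1 had 151, 166 and 154 CPM in 48 h spheroids, against 59.9, 66.4 and 64.4 CPM in 48 h monolayers, and was 2.47-fold higher (log2 change 1.30 ± 0.0796 (SE), adjusted p = 8.14e-11). Hmox1 had 490.3, 526 and 508 CPM in spheroids, against 197, 228 and 258 CPM in monolayers, and was 2.23-fold higher (log2 change 1.16 ± 0.0833 (SE), adjusted p = 8.86e-10). Neither gene's groups overlapped. Prdx1 had 1844, 1786 and 1598 CPM in spheroids, against 739.8, 947 and 968 CPM in monolayers (log2 change 0.98 ± 0.0922 (SE), adjusted p = 3.78e-08). Txnrd1, the cytosolic thioredoxin reductase, had 441, 479 and 464 CPM in spheroids, against 288, 289.7 and 304 CPM in monolayers, and was 1.57-fold higher (log2 change 0.65 ± 0.0633 (SE), adjusted p = 5.78e-08). Osgin1, a growth inhibitor induced by oxidative stress, was the least abundant. It had 9.27, 13.3 and 9.35 CPM in spheroids, against 7.35, 6.88 and 6.98 CPM in monolayers (log2 change 0.58 ± 0.151 (SE), adjusted p = 0.00278).

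Adipocyte markers moved with these genes at 48 h: their summed level was 288 to 319 CPM in spheroids and 34.5 to 40.3 CPM in monolayers. Of the 6 adipocyte markers, 3 passed the filter and all 3 rose. Plin1 passed it only through the 48 h spheroids, so its rise is not independent of the filter. Most of the sum was Fabp4. Pparg had 14.6 CPM in 48 h spheroids and 3.39 CPM in 48 h monolayers, and Plin1, a coat protein of lipid droplets, had 57 counts over the 48 h spheroids and 0 over the 48 h monolayers. Adipoq had 5 counts over the 48 h spheroids and 0 over the 48 h monolayers, and Lep had 0 in either. Immune markers summed to 289.9 to 323 CPM in 48 h spheroids and 76.5 to 95.2 CPM in 48 h monolayers. Most of the sum was Cd14, with 274 CPM in 48 h spheroids and 56.7 CPM in 48 h monolayers. Of the 5 tested immune markers 2 rose and none fell: Cd14 (2.27 on the log2 scale) and Cd68 (log2 change 1.00 ± 0.264 (SE), adjusted p = 0.00327). Ptprc had 8 counts over the 48 h spheroids and 3 over the 48 h monolayers, and Adgre1 8 and 14. Of the 6 endothelial markers 3 fell and none rose. All these marker counts are read against the 31.6% of all tested genes that rose and the 26.4% that fell. Of the 8 fibroblast markers 5 fell and 2 (Pdgfra and Dcn) rose. All 8 summed to 1993 to 2256 CPM in 48 h spheroids and 7790 to 8562 CPM in 48 h monolayers, mostly Col1a1 and Col1a2. Col1a1 had 719 CPM in 48 h spheroids and 4029 CPM in 48 h monolayers, while Dcn had 193 and 107 CPM. Of the 8 epithelial markers 3 rose and 5 fell. Their part in the result was not tested.

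**Figure D2:**
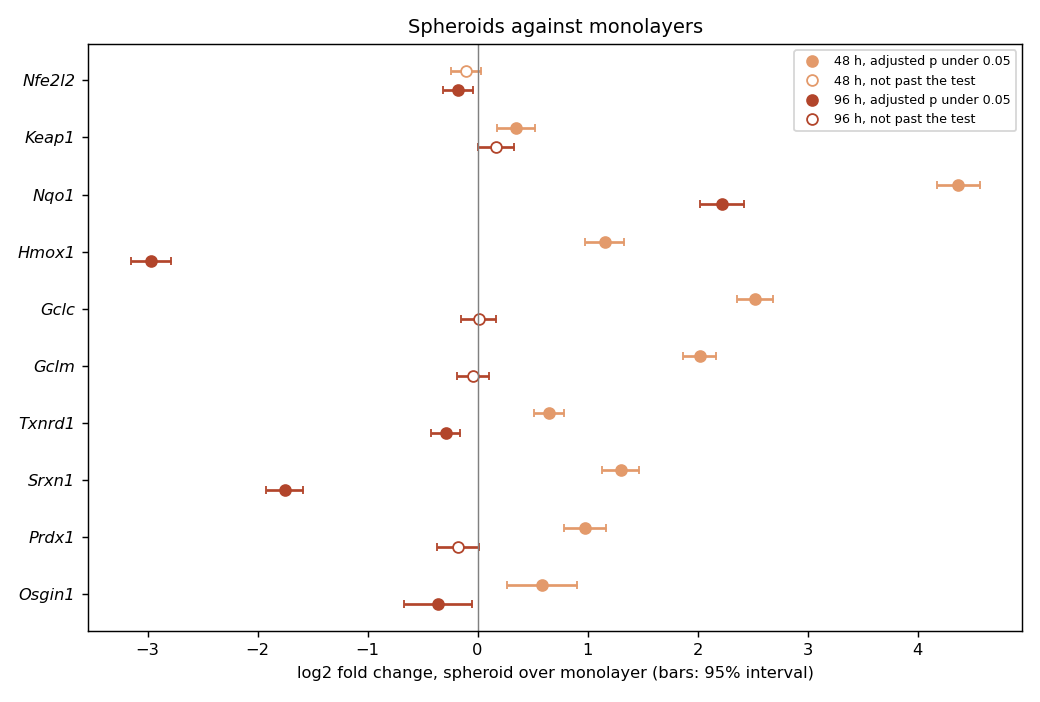
log2 fold change of spheroids over monolayers (horizontal axis) for each gene at 48 h and 96 h, with 95% intervals from edgeR. Filled points passed an adjusted p of 0.05; at 48 h all genes but Nfe2l2 lie above 0, while at 96 h Nqo1 alone passed above 0 and Hmox1 lies at -2.97.

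At 96 h the picture in spheroids against monolayers was different. Nqo1 remained higher (4.66-fold higher), Hmox1 was 7.84-fold lower and Srxn1 3.37-fold lower, while the differences of Gclc, Gclm and Prdx1 did not pass. Of the 10 genes 1 rose and 5 fell, against 37.3% and 36.5% of all tested genes. The share called, 6 of 10, is below the 73.8% of all genes. The median log2 change was -0.18, against 0.00 over all genes (-0.0015). In 6 of the 10 genes every spheroid library lay below every monolayer library, in 2 (Nqo1 and Keap1) above, and 2 overlapped, where 78.9% of all tested genes did not overlap in either direction.

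Hmox1 had 173, 169.7 and 166 CPM in 96 h spheroids, against 1425, 1300 and 1264 CPM in 96 h monolayers (log2 change -2.97 ± 0.0877 (SE), adjusted p = 1.64e-15). The monolayers of this time were the highest group for Hmox1 and the spheroids the lowest, and no pair of neighbouring groups overlapped. Srxn1 had 66.8, 72.5 and 61.2 CPM in spheroids, against 246, 207 and 222 CPM in monolayers (log2 change -1.75 ± 0.0783 (SE), adjusted p = 4.81e-13). Nqo1 had 50.4, 49.3 and 51.4 CPM in spheroids, against 9.84, 10.8 and 11.8 CPM in monolayers (log2 change 2.22 ± 0.0948 (SE), adjusted p = 2.56e-13). Spheroids thus held all of the higher values of Nqo1 at either time, and monolayers all of the higher values of Hmox1 and Srxn1 at 96 h.

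Neither subunit of glutamate-cysteine ligase passed the test between formats at 96 h. Gclc had 146, 134 and 131 CPM in 96 h spheroids and 135, 149 and 124 CPM in 96 h monolayers (log2 change 0.01 ± 0.0741 (SE), adjusted p = 0.916; 95% interval -0.15 to 0.17), and its sign, within that interval, turned under 8 of 21 alternatives. Gclm had 97.0, 96.9 and 99.7 CPM in spheroids and 106, 103 and 93.2 CPM in monolayers (log2 change -0.04 ± 0.0680 (SE), adjusted p = 0.605; 95% interval -0.18 to 0.10). The spheroid libraries of each gene lay inside the range of the monolayers. Txnrd1 had 305, 318 and 333 CPM in spheroids, against 372, 403 and 394 CPM in monolayers, and was 1.22-fold lower (log2 change -0.29 ± 0.0630 (SE), adjusted p = 0.000434). Prdx1 had 1283, 1383 and 1355 CPM in spheroids, against 1484, 1627 and 1429 CPM in monolayers (log2 change -0.17 ± 0.0913 (SE), adjusted p = 0.0917; 95% interval -0.37 to 0.017). Its libraries did not overlap, and it passed as lower without replicate 1 or 3 of the 48 h monolayers (log2 change -0.17 to -0.18, adjusted p from 0.0234 to 0.0437) and under 6 other settings; over 21 alternatives the adjusted p was 0.0123 to 0.269. Osgin1 had 7.26, 8.72 and 7.13 CPM in spheroids, against 9.44, 10.4 and 9.88 CPM in monolayers (log2 change -0.36 ± 0.145 (SE), adjusted p = 0.033). That call ended without replicate 1 or 3 of the 96 h spheroids or 2 or 3 of the 96 h monolayers (log2 change -0.31 to -0.36, adjusted p from 0.0636 to 0.11) and without the filter (0.0501); over 21 alternatives the adjusted p was 0.00916 to 0.11.

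Markers of other cells also moved at 96 h. Their counts are read against the 37.3% of all tested genes that rose and the 36.5% that fell. All 6 endothelial markers fell, to the summed levels given above. Of the 8 fibroblast markers 6 fell and 1 (Col3a1) rose. All 8 summed to 682 to 737 CPM in 96 h spheroids and 1768 to 2426 CPM in 96 h monolayers, mostly Col1a1 and Col1a2. The 9 immune markers, mostly Cd14, summed to 486 to 570 CPM in 96 h spheroids and 104 to 117 CPM in 96 h monolayers, and of the 5 tested 2 rose and 2 fell. Adipocyte markers, mostly Fabp4, summed to 51.3 to 55.8 CPM in 96 h spheroids and 54.9 to 80.3 CPM in 96 h monolayers. Of the 3 tested adipocyte markers 2 rose (Pparg and Plin1) and 1 fell (Fabp4). The rise of Plin1 rested on 5 counts over the 96 h spheroids and 0 over the 96 h monolayers. Of the 8 epithelial markers 6 rose and 1 fell. Among the immune markers Cd68, a lysosomal protein of macrophages, was at 5.02 CPM in 96 h spheroids and 24.9 CPM in 96 h monolayers. The defining immune markers Ptprc and Adgre1 were near 0, with 3 counts each over the 96 h spheroids and 1 and 3 counts over the 96 h monolayers. Their part in the result was not tested.

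Set by time, the targets fell in spheroids and rose in monolayers. In spheroids, 8 of the 10 genes fell at 96 h against 48 h and none rose, against 20.5% of all tested genes called lower. In monolayers, 9 of the 10 rose and none fell, against 30.1% of all tested genes called higher. The median log2 change was -0.62 in spheroids and 0.63 in monolayers, against 0.01 over all genes in each. All libraries of 96 h spheroids lay below all of 48 h spheroids for 8 of the 10 genes, where 53.8% of all tested genes did not overlap in either direction. All libraries of 96 h monolayers lay above all of 48 h monolayers for 9 of the 10, where 63.8% of all tested genes did not overlap in either direction. These comparisons share their libraries with those between formats. Markers of other cells moved as well. In spheroids all 8 fibroblast, all 6 endothelial and all 3 tested adipocyte markers fell at 96 h. Plin1 passed the filter only through the 48 h spheroids, so its fall is not independent of the filter. Of the 5 tested immune markers 1 rose and 2 fell, and of the 8 epithelial markers 3 rose and 3 fell. Over all tested genes 19.3% rose and 20.5% fell in spheroids. In monolayers all 8 epithelial markers fell, and 6 of 8 fibroblast markers fell and 2 rose. Of the 6 endothelial markers 4 rose and 1 fell, 1 of 3 adipocyte markers rose, and of the 5 immune markers 2 rose and 1 fell. Over all tested genes 30.1% rose and 31.3% fell in monolayers. Among the immune markers in monolayers, Cd68 rose to 24.9 CPM at 96 h, against 2.44 CPM at 48 h (log2 change 3.34 ± 0.210 (SE), adjusted p = 2.18e-10). Lyz2 rose too (0.67), Itgam fell (-0.93), and Csf1r (0.13) and Cd14 (0.18) did not pass. Ptprc had 1 count over the 96 h monolayers and 3 over the 48 h monolayers, and Adgre1 3 and 14. Their part in the result was not tested.

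In spheroids, Nqo1 fell to 50.4, 49.3 and 51.4 CPM at 96 h, against 168, 186 and 167 CPM at 48 h (3.44-fold lower; log2 change -1.78 ± 0.0740 (SE), adjusted p = 2.09e-12). Hmox1 fell to 173, 169.7 and 166 CPM at 96 h, against 490.3, 526 and 508 CPM at 48 h (log2 change -1.58 ± 0.0843 (SE), adjusted p = 4.47e-11). Gclc was 2.71-fold lower (-1.44, adjusted p = 2.62e-11) and Srxn1 2.35-fold lower (-1.23, adjusted p = 4.74e-10). Gclm (-0.70), Txnrd1 (-0.53), Prdx1 (-0.38) and Osgin1 (-0.46) fell by less on the log2 scale. Nfe2l2 (log2 change 0.03, 95% interval -0.10 to 0.17) and Keap1 (0.11, 95% interval -0.05 to 0.28) did not pass. The call of Osgin1 rested on few counts and ended without replicate 2 of the 48 h spheroids (log2 change -0.28, adjusted p = 0.138) or replicate 1 or 3 of the 96 h spheroids (log2 change -0.41 to -0.42, adjusted p from 0.0623 to 0.0721); over 21 alternatives the adjusted p was 0.0117 to 0.138.

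In monolayers, Hmox1 rose to 1425, 1300 and 1264 CPM at 96 h, against 197, 228 and 258 CPM at 48 h (5.83-fold higher; log2 change 2.54 ± 0.0861 (SE), adjusted p = 8.33e-14). Srxn1 was 3.54-fold higher (log2 change 1.82 ± 0.0792 (SE), adjusted p = 1.61e-12), Gclm 2.56-fold higher (1.36, adjusted p = 2.85e-11), Gclc 2.10-fold higher (1.07, adjusted p = 1.47e-09) and Prdx1 1.71-fold higher (0.77, adjusted p = 1.02e-06). Txnrd1 (0.41), Osgin1 (0.48) and Keap1 (0.29) rose by less. Nqo1 rose by 0.37 on the log2 scale (adjusted p = 0.0143), the smallest change of the targets in monolayers. That call ended without replicate 3 of the 48 h monolayers (0.25, adjusted p = 0.0889) or replicate 3 of the 96 h monolayers (0.29, adjusted p = 0.0766) and with the monolayers fitted alone (0.37, adjusted p = 0.0526); over 21 alternatives the adjusted p was 0.000445 to 0.0889. Nfe2l2 did not pass (log2 change 0.10 ± 0.0639 (SE), adjusted p = 0.165); it passed with upper-quartile scaling (0.16), on the log2 FPKM values (0.27) and with scaling by total count (0.28, or 0.11 relative to the shift of 0.171 in the median of all genes).

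**Figure D3:**
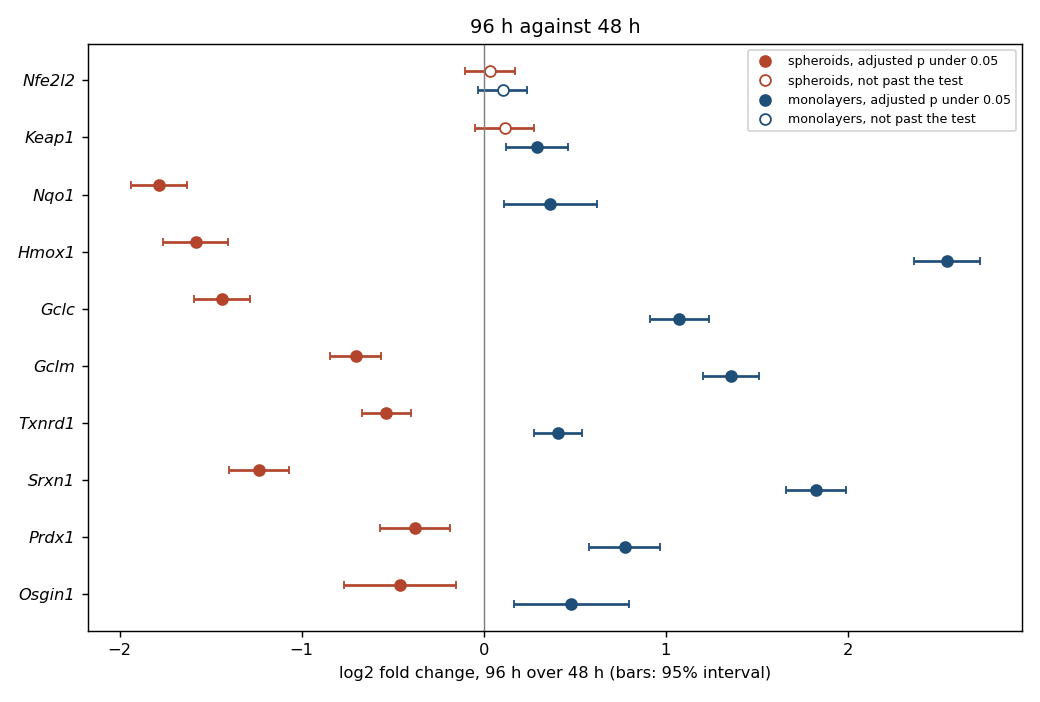
log2 fold change of 96 h over 48 h (horizontal axis) for each gene in spheroids and in monolayers, with 95% intervals from edgeR; filled points passed an adjusted p of 0.05. The 8 targets lie below 0 in spheroids and above 0 in monolayers, with Nfe2l2 near 0 in each format.

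The difference between the formats' courses was tested as an interaction, the log2 change between formats at 96 h less the same at 48 h. All 8 targets passed with a negative interaction and none of the 10 genes with a positive interaction, where 53.3% of all tested genes passed, 26.4% negative and 26.9% positive. Hmox1 had the largest difference (log2 change -4.13 ± 0.120 (SE), adjusted p = 2.8e-14), then Srxn1 (log2 change -3.06 ± 0.112 (SE), adjusted p = 2.34e-13). Gclc (-2.51), Nqo1 (-2.15) and Gclm (-2.06) followed, with Prdx1 (-1.15), Osgin1 (-0.94) and Txnrd1 (-0.94) the smallest. Nfe2l2 (log2 change -0.07 ± 0.0906 (SE), adjusted p = 0.536) and Keap1 (log2 change -0.18 ± 0.112 (SE), adjusted p = 0.193) did not pass. Each passed with scaling by total count (-0.26 and -0.37, adjusted p = 0.0235 and 0.00963, or -0.07 and -0.18 relative to the shift of -0.187 in the median of all genes) and on the log2 FPKM values. Over 20 alternatives the adjusted p was 0.0195 to 0.858 for Nfe2l2 and 0.00963 to 0.421 for Keap1. Keap1 also passed without replicate 3 of the 48 h monolayers (-0.26, adjusted p = 0.0481).

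Ordered by group means, the genes fell into more than a single pattern. Nqo1, Gclc, Gclm, Txnrd1, Prdx1 and Osgin1 were highest in 48 h spheroids, and Hmox1 and Srxn1 in 96 h monolayers. The lowest group was the 48 h monolayers for all targets but Hmox1, which was lowest in 96 h spheroids. For Nqo1 every spheroid library of either time stood above every monolayer library of either time, which held for none of the other targets. Neighbouring groups overlapped for Gclc and Gclm (96 h spheroids and 96 h monolayers), Srxn1 (96 h spheroids and 48 h monolayers), Prdx1 (48 h spheroids and 96 h monolayers) and Osgin1 (48 h spheroids and 96 h monolayers, and 96 h spheroids and 48 h monolayers). The highest group mean exceeded the lowest 20.8-fold for Nqo1, 7.84-fold for Hmox1, 5.73-fold for Gclc and 4.05-fold for Gclm, but 1.57-fold for Txnrd1 and 1.51-fold for Osgin1.

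**Figure D4:**
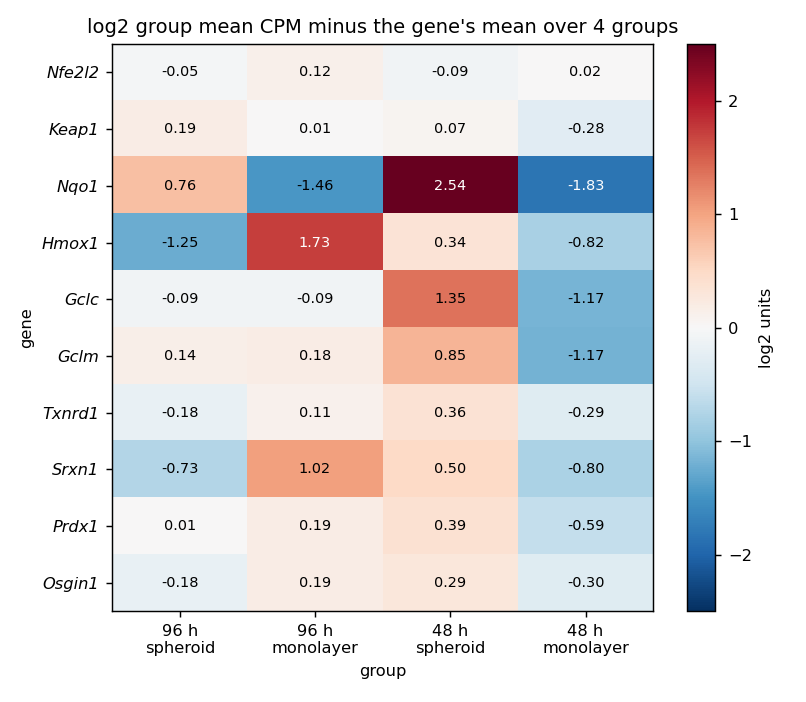
log2 of each gene's group mean CPM minus its own mean over the 4 groups (colour and printed value, in log2 units), genes by rows and groups by columns. Nqo1 stands at 2.54 in 48 h spheroids and Hmox1 at 1.73 in 96 h monolayers, while Nfe2l2 lies between -0.09 and 0.12.

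Levels between genes can be compared only per length, on the authors' FPKM values (fragments normalised for gene length and library size). On that scale Prdx1 was the most abundant, with its highest group mean, 1254 FPKM, in 48 h spheroids and its lowest, 590.4 FPKM, in 48 h monolayers. Hmox1 had 897 ± 71.0 FPKM in 96 h monolayers (SD, n = 3). Nfe2l2 averaged 63.3 FPKM over the group means and Keap1 15.03 FPKM. Nqo1 had 114 ± 6.63 FPKM in 48 h spheroids, against 5.09 ± 0.790 FPKM in 48 h monolayers. It thus stood above Nfe2l2 in 48 h spheroids and below Keap1 in 48 h monolayers. In 96 h spheroids Nqo1 had 32.6 FPKM, below the 60.7 FPKM of Nfe2l2. Osgin1 was the lowest, with group means from 3.38 to 5.41 FPKM.

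The genes whose log2 CPM followed a member most closely over the 12 libraries were named by Pearson's r, given as a measure of likeness only, since the libraries fall into 4 groups and share their scaling. For Nqo1 they were Glul (r = 0.997), Slpi (0.996) and Abcc3 (0.995). Glul had 355 CPM in 96 h spheroids, 90.3 in 96 h monolayers, 1159 in 48 h spheroids and 74.4 in 48 h monolayers. For Hmox1 they were the row of Paqr11, Mmd and BC106170 (0.996), Lingo1 (0.991) and Layn (0.988). The Paqr11 row had 32.4 CPM in 96 h spheroids, 277 in 96 h monolayers, 103 in 48 h spheroids and 45.4 in 48 h monolayers. For Nfe2l2 they were the row of AK158854 and Fam175b (0.931), Fam175a (0.929) and Kif9 (0.917).

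Other genes of the pathway, on 7 lists, were set beside the members. These lists too were chosen with earlier results of these data known. Of the 79 that were tested, 44 rose and 19 fell in spheroids at 48 h, with a median log2 change of 0.47 against 0.05 over all genes. Over all tested genes 31.6% rose and 26.4% fell in that comparison. At 96 h 31 rose and 30 fell, with a median of 0.03, where 37.3% of all genes rose and 36.5% fell. At 96 h against 48 h in spheroids 11 rose and 38 fell, where 19.3% of all genes rose and 20.5% fell. In monolayers 32 rose and 22 fell over time, where 30.1% of all genes rose and 31.3% fell. For the genes named from these lists, levels are group means ± SD over 3 libraries, and values in parentheses are log2 changes of spheroids over monolayers.

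Of the partners of Nrf2 and factors of its turnover, at 48 h 8 of 13 fell and none rose in spheroids (median log2 change -0.27), and at 96 h 8 fell and 1 rose (-0.24), where 26.4% and 36.5% of all tested genes fell. Maff, a small Maf partner, had 34.3 ± 2.08 CPM in 48 h spheroids, against 94.4 ± 6.91 CPM in 48 h monolayers (-1.46, adjusted p = 2.43e-11), and was lower at 96 h too (-1.15). Sqstm1, which encodes p62, an autophagy adaptor that sequesters Keap1, had 353 ± 20.8 CPM in 96 h spheroids, against 1010 ± 50.8 CPM in 96 h monolayers (-1.52, adjusted p = 9.92e-13), and was lower at 48 h too (-0.66). Rbx1, a subunit of the Cul3 ligase, was the gene that rose at 96 h (0.53) and did not pass at 48 h (-0.01).

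Of 14 genes of glutathione synthesis and use, 10 rose and 4 fell in 48 h spheroids (median 0.58), and 7 rose and 6 fell in 96 h spheroids (0.35), each against monolayers, where 57.9% and 73.8% of all tested genes were called in either direction. Slc7a11, the cystine importer that feeds glutathione synthesis, had 48.6 ± 3.94 CPM in 96 h spheroids and 278 ± 32.7 CPM in 96 h monolayers (-2.52, adjusted p = 1.9e-13). At 48 h it had 227 ± 16.5 CPM in spheroids and 47.9 ± 7.16 CPM in monolayers (2.25), so its direction turned between the times. The calls of Hmox1, Srxn1, Txnrd1 and Osgin1 turned too, that of Osgin1 at 96 h not under every alternative. Gpx3, a secreted glutathione peroxidase, had 1827 ± 63.1 CPM in 48 h spheroids, against 47.0 ± 2.69 CPM in 48 h monolayers (5.28, adjusted p = 2.28e-18), and was higher at 96 h too (3.20). Gpx2, an epithelial glutathione peroxidase, was 14.1-fold higher in 96 h spheroids (3.82) and higher at 48 h too (4.77). Chac1, which breaks down glutathione, had 3.46 ± 0.304 CPM in 48 h spheroids, against 27.6 ± 1.57 CPM in 48 h monolayers (adjusted p = 1.51e-13), and was lower at 96 h too (-1.07).

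Of 15 thioredoxin and peroxiredoxin genes other than the members, 6 rose and 3 fell at 48 h (median 0.17), and 6 rose and 6 fell at 96 h (0.12). The numbers called, 9 and 12 of 15, are near the shares of all tested genes, 57.9% and 73.8%. Txnip, an inhibitor of thioredoxin, rose in 48 h spheroids (1.51) and fell in 96 h spheroids (-0.98). Sesn2, a stress-induced sestrin, was lower in spheroids at 48 h (-0.90) and at 96 h (-1.02). At 96 h Prdx4, the peroxiredoxin of the endoplasmic reticulum, rose (1.00), and it did not pass at 48 h (-0.22). Sesn3 was lower at 48 h (-0.32) and at 96 h (-1.06). Of the 10 genes of NADPH supply, which fuels these reductases, 6 rose and 3 fell at 48 h (0.57), and 8 rose and none fell at 96 h (0.60), where 37.3% of all tested genes rose. G6pdx, the entry enzyme of the pentose phosphate pathway, had 521 ± 6.98 CPM in 48 h spheroids, against 119.9 ± 5.41 CPM in 48 h monolayers (2.12, adjusted p = 5.65e-15), and was higher at 96 h too (1.69). Mthfd2, a mitochondrial folate enzyme, was lower at 48 h (-2.13) and higher at 96 h (0.44). Idh2, the mitochondrial isocitrate dehydrogenase, was higher at 48 h (0.57) and at 96 h (1.75).

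Haem and ferritin genes, which handle the substrate and the iron of Hmox1, rose for 7 of 9 at 48 h with none lower (median 0.84), where 31.6% of all tested genes rose. At 96 h 3 rose and 4 fell (0.06), where 73.8% of all tested genes were called. Fth1, the ferritin heavy chain, had 8916 ± 436 CPM in 48 h spheroids, against 1082 ± 139 CPM in 48 h monolayers (3.04, adjusted p = 9.81e-15), and was higher at 96 h too (0.28). Of the biliverdin reductases, which act after Hmox1, Blvra rose (1.11) and Blvrb fell (-0.99) in 96 h spheroids. At 48 h Blvra did not pass (0.16) and Blvrb rose (1.64). Ferritin genes have processed pseudogenes, so reads may be shared with copies.

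Detoxification and export genes rose for 12 of 14 at 48 h with 1 lower (median 1.32), where 31.6% of all tested genes rose. At 96 h 5 rose and 5 fell (-0.01), where 73.8% of all tested genes were called. Abcc2, the remaining gene of that list, was too low to test. Abcc4, an export pump, had 4.87 ± 0.816 CPM in 96 h spheroids, against 78.4 ± 5.94 CPM in 96 h monolayers (-4.00, adjusted p = 1.12e-15). At 48 h it was higher in spheroids (1.39). Abcc3, a related pump, had 42.7, 42.4 and 39.1 CPM in 96 h spheroids, against 14.9, 13.3 and 12.7 CPM in 96 h monolayers (adjusted p = 4.94e-12), and was also higher in spheroids at 48 h (3.22). Gsta4, a glutathione transferase for lipid aldehydes, had 71.8 ± 7.25 CPM in 48 h spheroids, against 1.10 ± 0.0492 CPM in 48 h monolayers (6.01, adjusted p = 1.27e-16), and was higher at 96 h too (0.49). Transferases of similar sequence may share its reads. Ugdh, which makes UDP-glucuronate, was the gene that fell at 48 h (-0.39), and it did not pass at 96 h (-0.06).

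The superoxide and peroxide enzymes comprised 4 genes, of which 3 rose at 48 h (median 0.80), while 1 rose and 1 fell at 96 h (-0.02), against the same shares of all tested genes. Sod2, the mitochondrial superoxide dismutase, rose at 48 h (1.30) and at 96 h (0.84). Sod3, the extracellular form, rose at 48 h (0.88) and fell at 96 h (-0.99). Sod1, the cytosolic form, did not pass at either time (0.19 and -0.08).

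**Figure D5:**
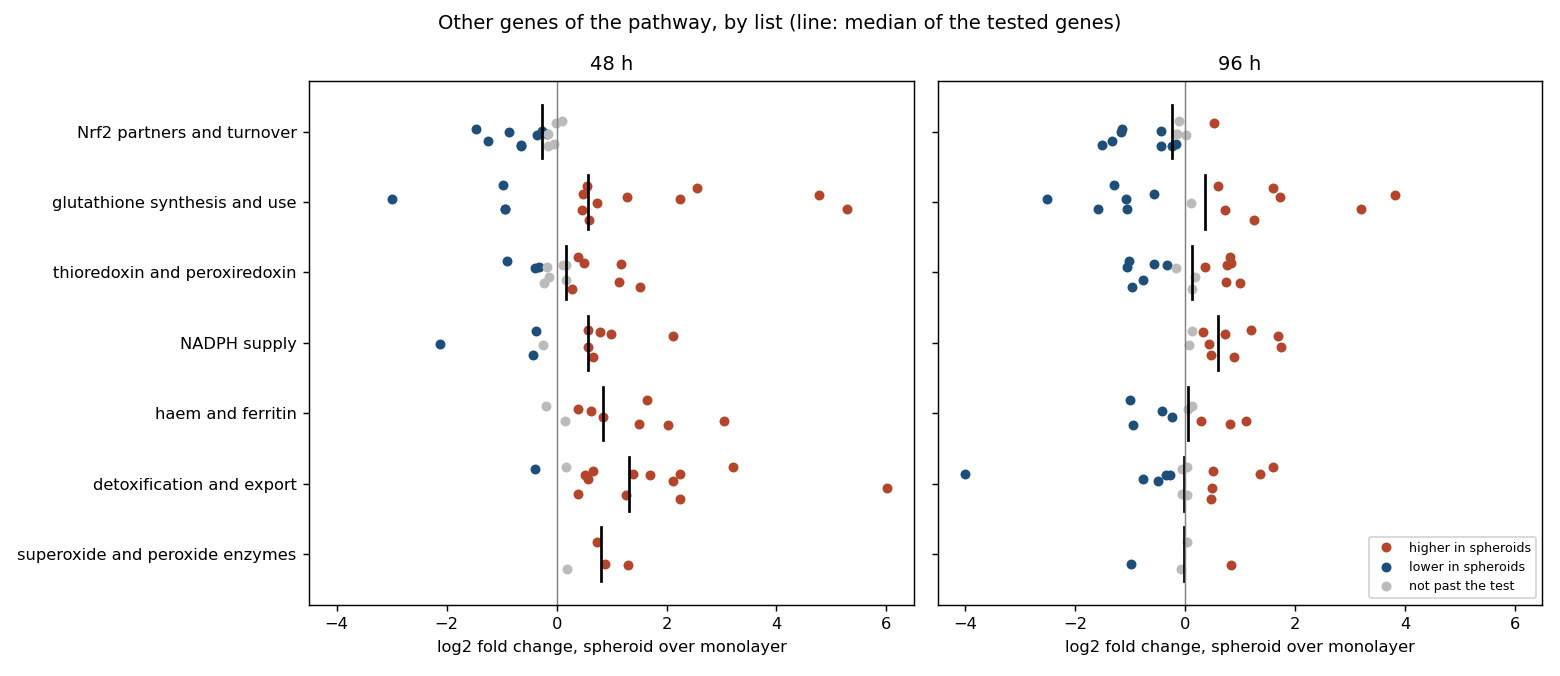
log2 fold change of spheroids over monolayers (horizontal axis) at 48 h and 96 h for the tested genes of each list (rows); each point is a gene, coloured by its call, and the line is the list's median. The median of detoxification and export genes is 1.32 at 48 h and -0.01 at 96 h, while that of NADPH supply is 0.57 and 0.60.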

How the data were processed

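Total RNA from 12 cultures was sequenced after Illumina TruSeq library preparation, per the labels. Per the submitters' processing notes, reads were handled with RSEM 1.2.30, Bowtie 1.0.1 and bcl2fastq 2.15.0, with mm9 as the build, and the sources used here give no strand setting. Expected counts from RSEM were deposited by the authors as whole numbers, beside log2 values of FPKM plus 1. Symbols came from the deposited annotation of UCSC known genes. Reads of Prdx1 could be shared with a pseudogene, and those of Keap1, Gclm and Txnrd1 with overlapping genes on the opposite strand; a pseudogene also overlaps Gclm, Eid3 overlaps Txnrd1 and a small RNA gene overlaps Nfe2l2.

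Tests used edgeR 4.0.16 under R 4.3.3: filterByExpr (minimum count 10, minimum total 15, 13951 of 28427 rows kept), TMM scaling (factors 0.923 to 1.07), and 5 contrasts of the 4 groups in a quasi-likelihood model of the 12 libraries without covariates. Tests were 2-sided with Benjamini-Hochberg adjustment over all tested genes and a threshold of 0.05. The SE is the log2 change divided by the square root of the F statistic. CPM used TMM-scaled library sizes. Replicates differed by more than counting error (chi-square per degree of freedom 2.41 to 17.2), and the number of reads limits the precision of Osgin1 most. The code was tested on simulated data.

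Alternatives were 3 other scalings, 2 other filters, DESeq2 1.42.0, limma 3.58.1 on the log2 FPKM values, the compared groups alone, the replicate number as a block, and leaving out each library. The 10 members and the lists were chosen with earlier results of these data known. Named genes were the members, the called genes of each list with the largest rise and fall in spheroids at 48 h and at 96 h (mean log2 CPM of at least 1), and the 3 genes most like Nfe2l2, Nqo1 and Hmox1. Glul, Paqr11, Lingo1, Layn, Fabp4, Cd68 and other markers are given as values only; Sod1 was named after its values were seen. Promoters are from RefSeq on GRCm38.p6, another build than that of the counts.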

Additional observations from a re-analysis of the deposited data

Results flagged for a closer look

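The effect of spheroid culture at 96 h differed from that at 48 h, by the interaction term of the edgeR model at an adjusted p under 0.05, for all 8 targets. The differences, on the log2 scale and as 96 h minus 48 h, were Hmox1 (-4.13), Srxn1 (-3.06), Gclc (-2.51), Nqo1 (-2.15), Gclm (-2.06), Prdx1 (-1.15), Osgin1 (-0.94) and Txnrd1 (-0.94). Neither Nfe2l2 nor Keap1 passed this test.

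Among the other pathway genes named in the text, the effect was lower at 96 h than at 48 h for Gsta4 (-5.52), Abcc4 (-5.39), Slc7a11 (-4.76), Fth1 (-2.76), Blvrb (-2.64), Txnip (-2.48), Gpx3 (-2.08), Sod3 (-1.86), Abcc3 (-1.62), Gpx2 (-0.96), Sqstm1 (-0.86), Sesn3 (-0.74), Sod2 (-0.46) and G6pdx (-0.43). It was higher at 96 h than at 48 h for Mthfd2 (2.57), Chac1 (1.93), Prdx4 (1.22), Idh2 (1.18), Blvra (0.96), Rbx1 (0.54), Ugdh (0.33) and Maff (0.31). Over all tested genes 53.3% passed this test, so a pass alone does not set these genes apart.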

How the results depend on the processing

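Each log2 change of the 10 genes was recomputed under 20 or 21 alternatives, 1040 values in all, of which 991 kept their direction and their side of the threshold. Gclm, Hmox1, Srxn1 and Txnrd1 kept them in every comparison and alternative run. Direction turned for Gclc at 96 h between formats with DESeq2-type scaling (-0.0145), upper-quartile scaling (-0.085), total counts (-0.0684), the stricter filter (-0.0519), DESeq2 (-0.0141) and log2 FPKM values (-0.0703); leaving out each library gave -0.0545 to 0.0686, below 0 without 96 h spheroid replicate 1 or 96 h monolayer replicate 3. For Nfe2l2 it turned at 48 h between formats with total counts (0.0036) and log2 FPKM values (0.0016). Over time in spheroids, leaving out each library gave Nfe2l2 changes of -0.00603 to 0.0629, below 0 without replicate 1 of the 96 h spheroids. None of these values passed the test. The cause was not tested. The number of members called ranged from 9 to 9 between formats at 48 h, 4 to 8 at 96 h, 7 to 8 over time in spheroids, 8 to 10 in monolayers and 8 to 10 for the interaction.

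Replicate numbers did not pair the libraries: 0 of 18 same-numbered pairs had deviations from their group means correlated over 0.1 (-0.11 to 0.0881), and 2 of 12 libraries correlated best with their own number. With the replicate number as a block, the genes called were 8110 instead of 8081 at 48 h and 10287 instead of 10296 at 96 h between formats, and the members called at 96 h were 7 instead of 6, since Keap1 passed (0.17, adjusted p = 0.049). Low counts limit Osgin1 and, in monolayers, Nqo1.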
